A study of Mus musculus with 27 samples.

Results

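Mature 3T3-L1 adipocytes exposed to 1 µM rosiglitazone for 24 h were compared with untreated adipocytes across 18781 genes. The comparison rests on the 3 arrays labelled for 24 h of the drug and the 3 labelled as adipocytes alone, chosen by label from the 27 arrays of a time course. The line is a mouse preadipocyte line, and all cultures had been turned into fat cells with dexamethasone, insulin and 3-isobutyl-1-methylxanthine before the course began, per the labels. The course held 3 arrays each for untreated cells at time 0 and for drug, dissolved in DMSO, given for 30 min, for 1 h and 2 h, for 6 h and 12 h, and for 24 h, 36 h and 48 h. RNA was read on the Affymetrix Mouse Gene 1.1 ST array, and values are log2 intensities, in which a difference of 1 is a 2-fold change.

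Rosiglitazone is a thiazolidinedione that binds and activates PPARγ, a nuclear receptor that pairs with RXR on DNA and drives the genes of lipid uptake and storage in fat cells. Drugs of this class lower blood glucose by making tissues, fat among them, more sensitive to insulin. In fat cells they are also known for raising genes of mitochondrial and peroxisomal fatty acid oxidation and, in some depots, genes of brown fat. The question of the comparison is which genes differ after a day of exposure.

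A gene was called when its limma adjusted p (Benjamini-Hochberg over all 18781 genes) was below 0.05, and only called genes are said to have risen or fallen. Changes are log2 fold changes, 24 h minus untreated, ± SE with n = 3 arrays per group. In the main fit the spread behind each SE and p was estimated within all 9 groups of the course, 27 arrays, and moderated across genes. It was thus not the spread of the 6 compared arrays alone. The labels do not say whether the 3 arrays of a group came from separate cultures, so a p-value here reflects only how far arrays of a group differed, and such differences may be technical. Untreated cells at time 0 were the only control, since 0 samples carry a DMSO label, and a day in culture, handling and the drug cannot be told apart. The number of arrays limits the precision: the SE of the changes had a median of 0.0877.

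The arrays carried the marker genes of fat cells. The mean log2 intensity of 12 adipocyte markers was 11.36, 11.39 and 11.37 on the 24 h arrays, against 11.27, 11.23 and 11.21 on the untreated arrays. Of these markers 6 rose and 2 fell, where 10.1% of all genes rose and 10.5% fell. The rises included the droplet protein gene Plin4 (0.45 ± 0.063, adjusted p 5.69e-06) and the fatty acid carrier Fabp4 (0.28 ± 0.062, adjusted p 0.00139). The falls included Pparg, whose values are given further on. Without 24 h replicate 3, or without untreated replicate 3, the number that rose was 3, and the number that fell was 1 without any single 24 h array and without untreated replicate 1 or 3. Adiponectin, Adipoq, averaged 12.01 ± 0.025 in 24 h cells and 11.91 ± 0.04 in untreated cells (SD, n = 3 each; change 0.11, adjusted p 0.184).

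Preadipocyte and fibroblast markers averaged 6.92, 6.96 and 7.03 on the 24 h arrays, against 7.18, 7.25 and 7.22 on the untreated arrays, so the groups did not overlap. In bulk RNA, fewer cells of a type and less RNA per cell cannot be told apart. Of 14 such markers measured, 7 fell and 1 rose. The growth factor receptor Pdgfra fell by 0.76 ± 0.11 (adjusted p 1.55e-05), S100a4 fell by 0.93 ± 0.11 (adjusted p 1.03e-06) and Dlk1, which marks preadipocytes, fell by 0.39 ± 0.073 (adjusted p 0.000261). The mesenchymal transcription factor Twist2 rose by 0.56 ± 0.08 (adjusted p 9.06e-06).

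Macrophage markers were low in both groups, with means of 3.36, 3.45 and 3.48 on the 24 h arrays and 3.6, 3.63 and 3.56 on the untreated arrays. The defining macrophage marker Adgre1 averaged 2.69 ± 0.11 in 24 h cells and 2.68 ± 0.037 in untreated cells (SD, n = 3 each), near the bottom of the range of all values, which began at 1.67. Of 11 macrophage markers 2 were called lower and none higher, a share of 18.2% called, against 20.7% of all genes. The call of Cd14 (-0.83, adjusted p 0.00857) was lost without untreated replicate 1 (-0.69, adjusted p 0.0554). The other, Lyz2 (-0.59, adjusted p 0.0141), was lost without 24 h replicate 1 (-0.49, adjusted p 0.0894), 24 h replicate 2 (-0.53, adjusted p 0.0649) or untreated replicate 2 (-0.44, adjusted p 0.115). None of 10 skeletal muscle markers was called, against 20.7% of all genes. Their means were low, at 3.84, 3.82 and 3.87 on the 24 h arrays and 3.81, 3.87 and 3.89 on the untreated arrays. The median of the means of all genes was 4.76, and low signal limits what this lack of calls can say.

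After 24 h, 3879 of 18781 genes were called, which is 20.7% of the genes tested. They comprised 1901 higher genes (10.1%) and 1978 lower genes (10.5%). Centring each array on its median gave 3127 higher and 1313 lower genes, so the balance of directions depends on the scaling, and shares of higher genes among those called were 49% as deposited and 70.4% when centred. The centring moved the median change of all genes to 0.0745, against -0.00448 as deposited. Most changes were small: the median size was 0.347 among higher genes and 0.391 among lower genes.

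Larger changes were more often downward in number. A change of at least 2-fold was seen in 49 higher and 101 lower called genes, and 1 higher and 7 lower genes changed at least 4-fold. When the test itself demanded more than a 1.5-fold change, 147 genes were called, 52 higher and 95 lower. All 3 arrays of the 24 h group lay beyond all 3 untreated arrays in 6607 genes, 35.2% of those tested, of which 3249 (17.3%) were higher and 3358 (17.9%) lower. Unless a lost call is given beside it, each gene said below to have risen or fallen kept its call in every alternative setting other than that 1.5-fold minimum, as did 319 of the 465 called genes that the naming rule covers. At an unadjusted p below 0.05 there were 5663 genes, or 30.2%.

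The strongest rise was that of Elovl3, an elongase of very long chain fatty acids known from brown fat. Elovl3 read 8.01, 7.78 and 7.6 on the 24 h arrays, against 5.02, 5.07 and 5.77 on the untreated arrays, a change of 2.51 ± 0.24 (5.69-fold, adjusted p 1.98e-08). Pck1, the phosphoenolpyruvate carboxykinase that makes glycerol backbone for fat in adipocytes, read 10.64, 10.6 and 10.47 in 24 h cells, against 8.43, 8.78 and 8.64 in untreated cells (1.95 ± 0.11, 3.87-fold, adjusted p 7.44e-12). In both genes the 2 groups of arrays were far apart, though the rule that chose the 25 strongest rises allowed no overlap.

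Genes of mitochondria and peroxisomes stood among the strongest rises. Acaa1b, a peroxisomal thiolase, read 7.08, 7.19 and 6.82 in 24 h cells and 5.11, 4.98 and 5.21 in untreated cells (1.93 ± 0.2, adjusted p 8.46e-08), with the reservation that its close copy Acaa1a may share probe signal. Chchd10, a protein of the mitochondrial intermembrane space, read 8.02, 7.8 and 7.92 in 24 h cells and 5.75, 6.25 and 6.28 in untreated cells (1.82 ± 0.13, adjusted p 1.64e-10). Pdk4, a kinase that shuts off pyruvate dehydrogenase, read 9.03, 9.04 and 8.94 in 24 h cells and 7.27, 7.45 and 7.56 in untreated cells (1.58 ± 0.11, adjusted p 9.29e-11). In each of these 3 genes the 24 h arrays lay above the untreated arrays, as the rule that chose the 25 strongest rises required.

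The remaining genes among the 25 strongest rises mixed known PPARγ targets with genes of other roles. Olr1, the receptor for oxidised lipoprotein, rose by 1.72 ± 0.22, and the near-identical pair Arxes1 and Arxes2, named for their expression in adipocytes, rose by 1.75 ± 0.15 and 1.40 ± 0.11 and cannot be fully told apart by probes. The ceramidase gene Acer2 rose by 1.32 ± 0.14 (0.71 with its probe sets averaged), the small Maf factor Maff by 1.34 ± 0.11, the carbonyl reductase Cbr3 by 1.25 ± 0.081 and the inositol phosphate kinase Itpka by 1.54 ± 0.11. Tmem45b, Smim41, Cib4, Krt79, Lrrc39 and Nat1 rose by between 1.34 and 1.73. The microRNA gene Mir378a, whose host gene is the coactivator Ppargc1b, read 5.37, 5.46 and 5.07 in 24 h cells and 4.05, 4.2 and 3.93 in untreated cells (1.24 ± 0.15, adjusted p 1.04e-06), and against the 30 min arrays it differed by 0.50 (adjusted p 0.0166).

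The strongest fall was that of Acta2, smooth muscle actin, which read 7.26, 7.51 and 7.67 in 24 h cells, against 10.02, 10.06 and 10.14 in untreated cells (-2.59 ± 0.12, 6.03-fold lower, adjusted p 2.2e-13). Orm2, an orosomucoid of the acute-phase response, read 4.26, 4.46 and 4.85 in 24 h cells and 7.15, 6.99 and 6.91 in untreated cells (-2.49 ± 0.17, 5.63-fold lower, adjusted p 1.42e-10). Pcolce2, an enhancer of procollagen processing, read 4.6, 4.82 and 4.93 in 24 h cells and 7.07, 6.97 and 6.89 in untreated cells (-2.19 ± 0.12, adjusted p 2.84e-12). These genes belong to the contractile, acute-phase and matrix lists described further on.

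Other secreted and signalling products were also among the 25 strongest falls. Ccl6, a chemokine, fell by 2.16 ± 0.24, Ccn1, a matrix-bound signalling protein, fell by 2.02 ± 0.25, and haptoglobin, Hp, fell by 2.01 ± 0.088. Leptin, Lep, the hormone that reports fat stores, read 3.76, 3.85 and 4.24 in 24 h cells and 6.02, 5.55 and 5.25 in untreated cells (-1.65 ± 0.24, adjusted p 9.91e-06). Phkg1, a catalytic subunit of phosphorylase kinase, fell by 2.16 ± 0.12, the cytochrome gene Cyp2f2 fell by 1.89 ± 0.093, and the small Ras-like gene Rasl11a fell by 1.91 ± 0.1. Among the 25 strongest falls, Igfals and Cxcl13 had the widest spread between the 24 h arrays. These read 4.45, 4.72 and 5.52 for Igfals and 5.82, 4.95 and 5.09 for Cxcl13. The untreated arrays of both genes lay above these without overlap, as the rule that chose them required.

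**Figure D1:**
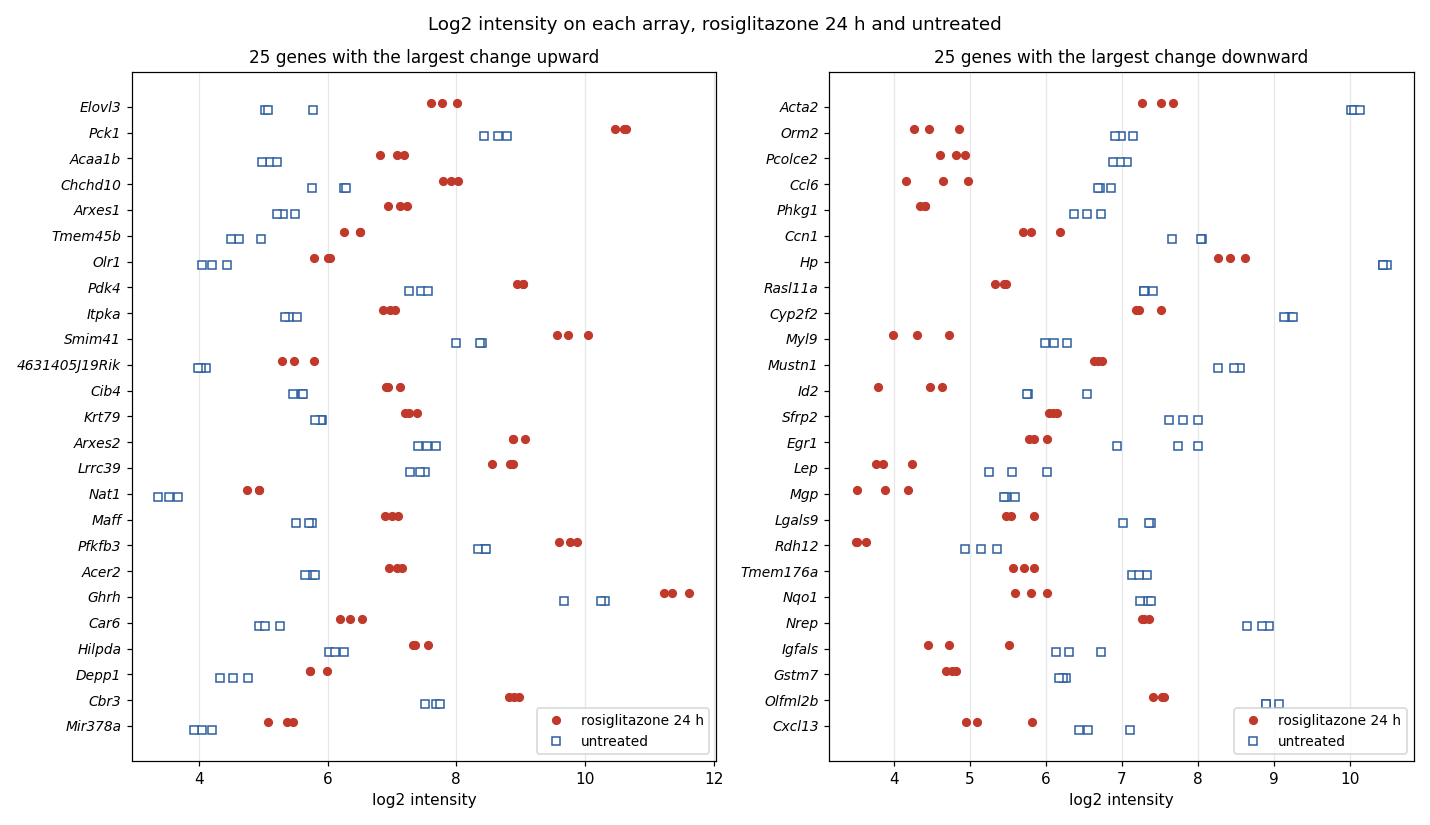
Log2 intensity (horizontal axis) on each array for the 25 genes with the largest rise (left panel) and the 25 with the largest fall (right panel) at 24 h, with filled red circles for the 24 h arrays and open blue squares for the untreated arrays. In each of the 50 genes the groups do not overlap, by the rule that chose them, and Elovl3 (2.51) and Acta2 (-2.59) have the largest changes.

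**Figure D2:**
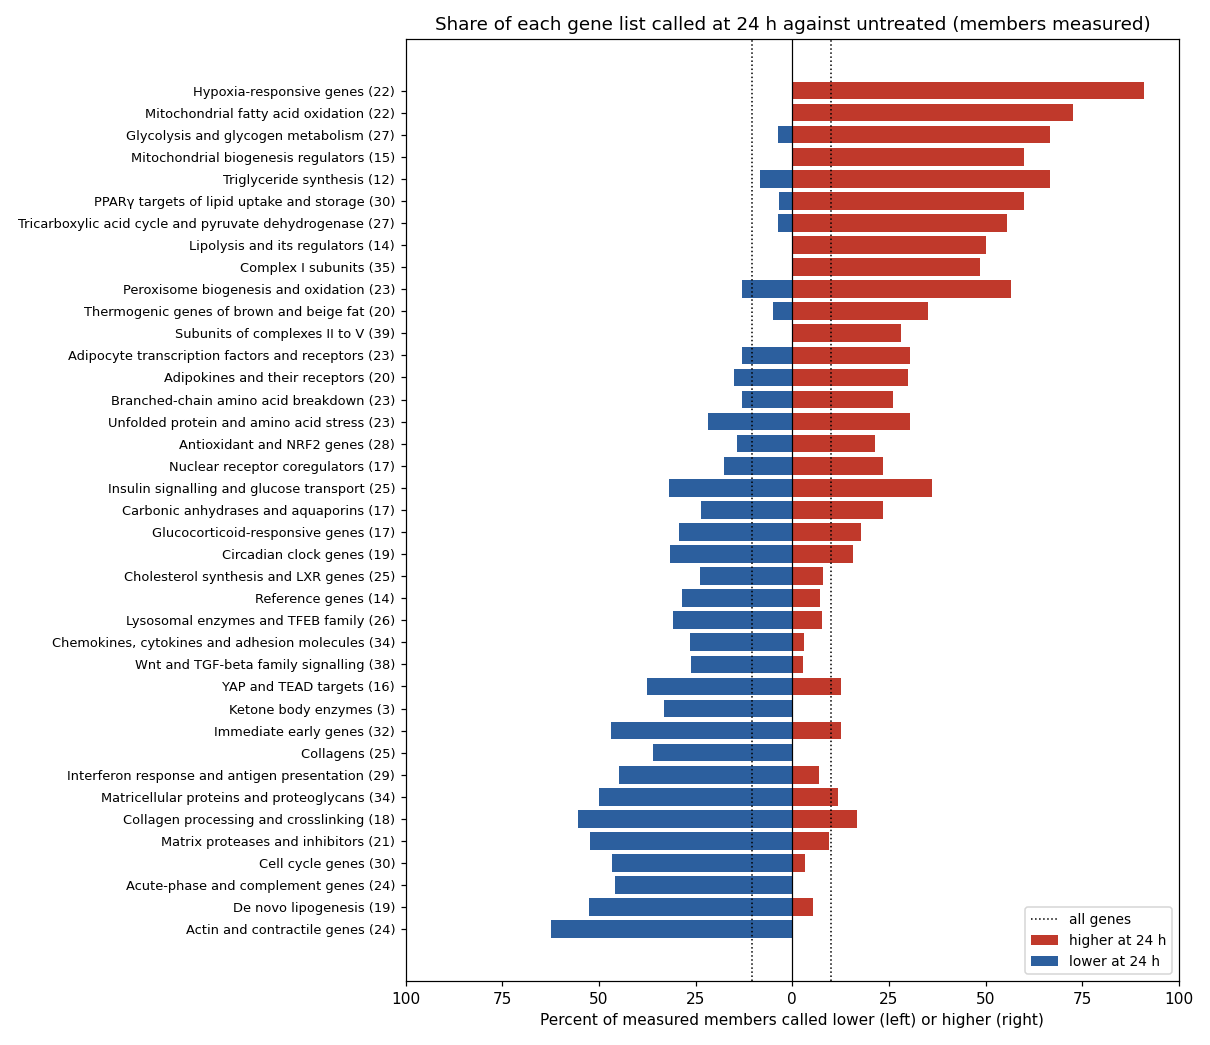
Percent of the measured members of 39 gene lists called lower (left, blue) or higher (right, red) at 24 h against untreated, with the number measured in brackets and dotted lines at the shares of all genes, 10.5% lower and 10.1% higher. Lists of hypoxia, fatty acid oxidation and lipid storage genes lie to the right, and lists of actin, matrix and acute-phase genes lie to the left.

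Genes of lipid uptake and storage that PPARγ is known to drive rose for the most part. Of 30 measured members, 18 rose and 1 fell, and the median change was 0.30, against -0.0045 over all genes. This list and those that follow were written with earlier results of these data known, so their directions are not independent evidence. The shares to set beside their counts are those of all genes, of which 10.1% rose and 10.5% fell. Angptl4, a secreted inhibitor of lipoprotein lipase, read 10.32, 10.34 and 10.32 in 24 h cells and 9.28, 9.4 and 9.43 in untreated cells (0.96 ± 0.073, adjusted p 5.55e-10), and against the 30 min arrays it differed by 0.42. The fatty acid transporter Cd36 read 11.44, 11.41 and 11.39 in 24 h cells and 11.03, 10.89 and 10.89 in untreated cells (0.48 ± 0.081, adjusted p 7.22e-05). Hilpda, a droplet protein that inhibits lipolysis, rose by 1.29 ± 0.093 and Hcar2, a receptor for ketone body and niacin, by 0.83 ± 0.075, while the glycerol channel Aqp7 rose by 0.62 ± 0.074.

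Some genes that define the adipocyte lipid store were not called. Lpl, the lipase that frees fatty acids from lipoproteins, differed by -0.021 (adjusted p 0.867), and Plin1, the main droplet coat protein, by -0.0099 (adjusted p 0.934). The coat proteins Plin2 and Plin4 rose by 0.41 ± 0.074 and 0.45 ± 0.063, and Plin5 differed by -0.21 (adjusted p 0.0514). Sult1a1, a sulfotransferase in the list, was the member that fell, at 5.42, 5.3 and 5.53 in 24 h cells and 6.67, 6.66 and 6.52 in untreated cells (-1.20 ± 0.11, adjusted p 9.98e-09).

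Enzymes that assemble triglyceride rose in 8 of 12 measured members and fell in 1, with a median of 0.30. The acyltransferases Agpat3 and Agpat2 rose by 0.54 ± 0.078 and 0.43 ± 0.07, and the phosphatidate phosphatase Lpin1 by 0.39 ± 0.059. The last step of the pathway is shared by 2 enzymes that moved in opposite directions. Dgat1 read 11.49, 11.51 and 11.5 in 24 h cells and 11.28, 11.3 and 11.28 in untreated cells (0.22 ± 0.055, adjusted p 0.00528). Dgat2 read 11.14, 11.13 and 11.22 in 24 h cells and 11.49, 11.53 and 11.58 in untreated cells (-0.37 ± 0.062, adjusted p 6.67e-05). With the 30 min arrays as baseline, an alternative added after the results were seen, 5 of the 12 triglyceride genes rose.

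Lipolysis genes rose in 7 of 14 measured members and fell in 0, with a median of 0.097. Pnpla2, the lipase of the first step, rose by 0.23 ± 0.052 (adjusted p 0.00183), and its inhibitor G0s2 rose by 0.27 ± 0.068 (adjusted p 0.00449). Pde3b, the phosphodiesterase through which insulin restrains lipolysis, rose by 0.41 ± 0.1, and Prkar2b, a regulatory subunit of protein kinase A, by 0.38 ± 0.069. Genes that promote and genes that restrain lipolysis were thus both among those that rose.

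Mitochondrial fatty acid oxidation was among the lists with the largest share of rises, at 16 of 22 measured members, with 0 lower and a median of 0.29. Slc25a20, which carries acylcarnitine across the inner membrane, read 8.49, 8.5 and 8.5 in 24 h cells and 7.42, 7.6 and 7.77 in untreated cells (0.90 ± 0.11, adjusted p 8.27e-07). Hadhb, the thiolase subunit of the trifunctional protein, read 10.65 on every 24 h array and 9.89, 9.82 and 9.79 in untreated cells (0.82 ± 0.073, adjusted p 6.87e-09). Its partner Hadha rose by 0.54 ± 0.065, and the electron transfer genes Etfdh and Etfa by 0.53 ± 0.099 and 0.40 ± 0.075.

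The steps of the pathway were not all called. The acyl-CoA dehydrogenases Acadl and Acadm rose by 0.29 ± 0.071 and 0.29 ± 0.068. Cpt1a, the liver form of the gate enzyme, differed by -0.19 (adjusted p 0.325), and the hydratase Echs1 by 0.05 (adjusted p 0.598). Oxct1, which uses ketone bodies, was the called member of the 3 measured ketone genes and fell by 0.36 ± 0.052 (adjusted p 9.76e-06).

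Peroxisome genes rose in 13 of 23 measured members and fell in 3, with a median of 0.24. Besides Acaa1b, the epoxide hydrolase Ephx2 read 10.16, 10.11 and 10.16 in 24 h cells and 9.22, 9.14 and 9.12 in untreated cells (0.98 ± 0.062, adjusted p 2.8e-11). Among genes of peroxisome assembly, rises were seen in Pex5 at 0.50 ± 0.083, Pex19 at 0.39 ± 0.069 and Pex13 at 0.36 ± 0.076. Abcd2, a transporter of very long chain fatty acids, fell by 0.75 ± 0.13, and Pxmp2, a channel of the peroxisome membrane, by 0.56 ± 0.098, while its relative Abcd3 rose by 0.28 ± 0.062. Members of the same compartment therefore moved both ways.

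Regulators of mitochondrial number rose in 9 of 15 measured members and fell in 0, with a median of 0.28. The coactivator Ppargc1b read 9.11, 9.1 and 8.9 in 24 h cells and 8.07, 8.17 and 8.26 in untreated cells (0.87 ± 0.085, adjusted p 2.88e-08). Its relative Ppargc1a read 7.86, 7.78 and 7.43 in 24 h cells and 6.94, 6.82 and 7.02 in untreated cells (0.76 ± 0.14, adjusted p 0.000141). The mitochondrial deacetylase Sirt3 rose by 0.66 ± 0.076, and Tfam, which packs and transcribes mitochondrial DNA, by 0.50 ± 0.077. Nrf1, a factor that drives respiratory genes, rose by 0.38 ± 0.064.

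The citric acid cycle and pyruvate dehydrogenase list rose in 15 of 27 measured members and fell in 1, with a median of 0.23. Idh3a, a subunit of isocitrate dehydrogenase, read 11.2, 11.09 and 11.11 in 24 h cells and 10.22, 10.28 and 10.22 in untreated cells (0.89 ± 0.074, adjusted p 2.35e-09), whereas its partner subunits Idh3b and Idh3g differed by -0.021 (adjusted p 0.837) and 0.062 (adjusted p 0.474). Of the pyruvate dehydrogenase subunits, rises were seen in Dlat at 0.63 ± 0.063 and Pdhb at 0.56 ± 0.066. The kinases that inhibit that complex rose in part, Pdk4 by 1.58 and Pdk2 by 0.70 ± 0.074, and the activating phosphatase Pdp1 fell by 0.46 ± 0.12 (adjusted p 0.00478). Citrate synthase, Cs, rose by 0.32 ± 0.059.

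The called genes of the respiratory chain were all higher, most of them by small amounts. Of 35 complex I subunits 17 rose and 0 fell, with a median of 0.17, and Ndufb6 rose most, by 0.52 ± 0.066 (adjusted p 1.78e-06). Of 39 subunits of complexes II to V 11 rose and 0 fell, with a median of 0.13. That count is sensitive: it was 22 when arrays were centred, 5 under quantile normalization, 7 in a fit of the 6 arrays alone, 5 without 24 h replicate 1, 4 without 24 h replicate 3, and 7 without untreated replicate 1 or untreated replicate 3. The members that rose in every such setting were led by Cox7a1, a cytochrome oxidase subunit of heart, muscle and brown fat, at 9.68, 9.74 and 9.76 in 24 h cells and 8.84, 8.83 and 8.67 in untreated cells (0.95 ± 0.089, adjusted p 1.53e-08).

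**Figure D3:**
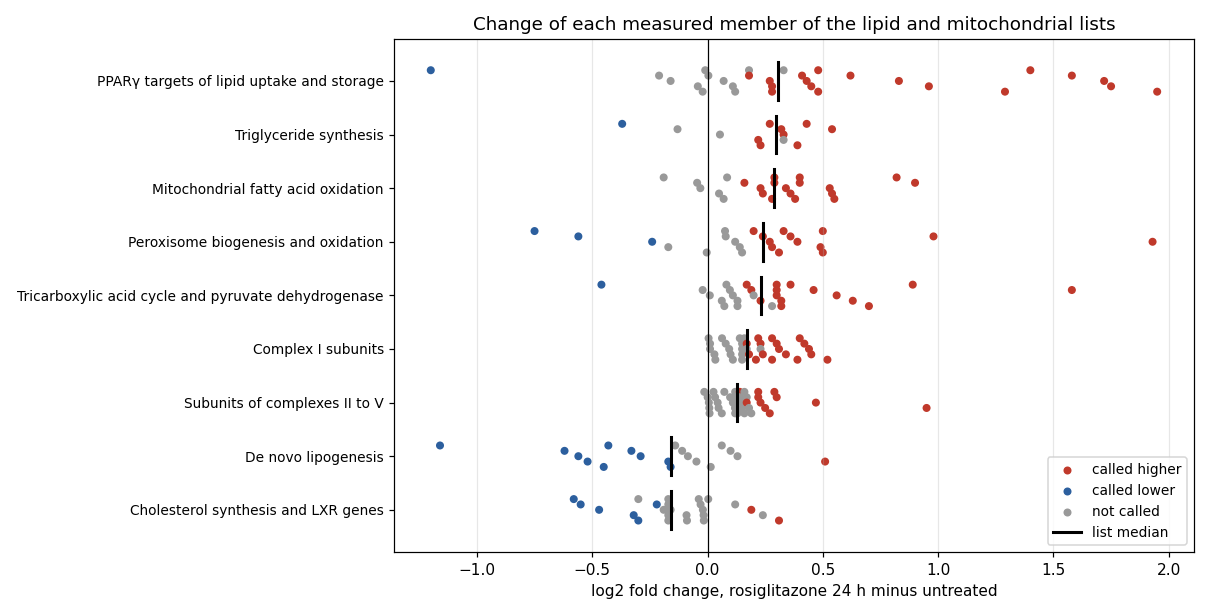
Log2 fold change (24 h minus untreated) of each measured member of 9 lists of lipid and mitochondrial genes, one point per gene, in red where called higher, blue where called lower and grey where not called, with a black bar at the list median. The medians lie between -0.16 for de novo lipogenesis and 0.30 for lipid uptake and storage and for triglyceride synthesis.

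Thermogenic genes of brown and beige fat split into a few strong rises and many members that were not called. Of 20 measured members 7 rose and 1 fell, with a median of 0.099. Cidea, a droplet protein of brown fat, read 6.06, 6.35 and 6.22 in 24 h cells and 4.98, 4.96 and 5.26 in untreated cells (1.14 ± 0.12, adjusted p 1.53e-07). Ucp1, the uncoupling protein that defines brown fat, averaged 2.81 ± 0.14 in 24 h cells and 2.78 ± 0.1 in untreated cells (SD, n = 3 each), a difference of 0.031 (adjusted p 0.871). Prdm16 differed by -0.15 (adjusted p 0.464) and Dio2 by 0.085 (adjusted p 0.665). Their means were also low, 3.75 at 24 h and 3.9 untreated for Prdm16, and 3.01 and 2.92 for Dio2. Tbx1, Tmem26, Tnfrsf9, Fgf21, Bmp8b and Ckmt2 had means between 3.1 and 3.58 in these groups. For such genes low signal limits what a lack of change can say. The nucleoside transporter Slc29a1 fell by 0.80 ± 0.081.

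Genes that make fatty acids had most of their calls downward. Of 19 de novo lipogenesis genes 10 fell and 1 rose, with a median of -0.16, and 8 fell and 3 rose after centring. Elovl6, which extends palmitate, read 6.73, 6.44 and 6.32 in 24 h cells and 7.38, 7.73 and 7.85 in untreated cells (-1.16 ± 0.12, adjusted p 8.63e-08). Acly, which makes cytosolic acetyl-CoA from citrate, read 9.5, 9.48 and 9.44 in 24 h cells and 10.05, 10.01 and 10.06 in untreated cells (-0.56 ± 0.056, adjusted p 4.6e-08). The regulators Srebf1 (-0.33 ± 0.061), Mlxipl (-0.45 ± 0.067) and Thrsp (-0.62 ± 0.094) fell with them.

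The synthase itself gave a weaker result. Fasn read 11.4, 11.44 and 11.5 in 24 h cells and 11.64, 11.64 and 11.57 in untreated cells (-0.17 ± 0.052, adjusted p 0.0176). Its call was lost in the fit of 6 arrays (adjusted p 0.0958), after centring (-0.095, adjusted p 0.311), and without 24 h replicate 1 (-0.15, adjusted p 0.0912), 24 h replicate 2 (-0.17, adjusted p 0.0537), untreated replicate 1 (-0.16, adjusted p 0.0601) or untreated replicate 2 (-0.16, adjusted p 0.0641). Acacb, the carboxylase whose product restrains fatty acid entry into mitochondria, rose by 0.51 ± 0.081 (adjusted p 3.39e-05). The desaturases Scd1 and Scd2 differed by -0.085 (adjusted p 0.266) and -0.048 (adjusted p 0.615).

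Cholesterol synthesis genes and LXR targets fell in 6 of 25 measured members and rose in 2, with a median of -0.16. Over all genes 10.5% fell and 10.1% rose. The lower count was 3 after centring, 9 under quantile normalization, 11 with array weights and 2 without untreated replicate 2. The higher count was 3 after centring, so the calls had no prevailing direction there. It was 1 in the fit of 6 arrays, under quantile normalization, without 24 h replicate 1 and without untreated replicate 2. Ebp, a late enzyme of the pathway, fell by 0.58 ± 0.091 (adjusted p 2.73e-05), and Stard4, which moves cholesterol between membranes, fell by 0.55 ± 0.097 (adjusted p 0.000131; -0.29 against the 30 min arrays). The LXR targets Abca1 and Abcg1 differed by -0.17 (adjusted p 0.22) and -0.016 (adjusted p 0.933).

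Glycolysis and glycogen genes rose in 18 of 27 measured members and fell in 1, with a median of 0.26. Pfkfb3, whose product stimulates phosphofructokinase, read 9.76, 9.88 and 9.6 in 24 h cells and 8.45, 8.34 and 8.46 in untreated cells (1.33 ± 0.1, adjusted p 6.85e-10). The phosphofructokinase genes of platelet and muscle type rose, Pfkp by 0.73 ± 0.092 and Pfkm by 0.39 ± 0.057. Gbe1, the glycogen branching enzyme, rose by 0.65 ± 0.077, and Gys2, a glycogen synthase known from liver, by 0.81 ± 0.2 (adjusted p 0.00367). Pygb, a glycogen phosphorylase, fell by 0.40 ± 0.057, and Gapdh differed by 0.049 (adjusted p 0.567).

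Hypoxia-responsive genes, which the transcription factor HIF is known to turn on when oxygen is short, had the highest share of rises of the 39 lists. Of 22 measured members 20 rose and 0 fell, with a median of 0.38. The list was written with earlier results of these data known, so its direction is not independent evidence, and 12 of its members also stand in other lists, of which Slc2a1, Hk2, Pgk1, Ldha and Pdk1 are in those of glucose and pyruvate, Hilpda in that of lipid, Adm and Vegfa in that of adipokines, and Car9, P4ha1, Ddit4 and Ero1a in 4 more. Under quantile normalization 18 members rose, and after centring 21.

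The core that HIF is known to bind is ACGTG, and the windows below show it in capitals, as ACGTG or as CACGT where it lies on the other strand, in the promoters of 3 members that rose. Each window is 60 bases of the gene's own strand, from the RefSeq promoters of GRCm38.p6, which run from 250 bases before to 50 after the annotated start.
Car9, chr4:43506966-43507025, plus strand: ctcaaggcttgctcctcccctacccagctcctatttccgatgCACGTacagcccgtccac
Egln1, chr8:124949291-124949350, minus strand: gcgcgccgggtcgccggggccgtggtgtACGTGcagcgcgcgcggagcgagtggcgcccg
Slc2a1, chr4:119108681-119108740, plus strand: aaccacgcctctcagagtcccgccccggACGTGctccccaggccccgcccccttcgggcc
The match lay 13 bases before the start in Car9, 63 in Egln1 and 31 in Slc2a1. ACGTG on either strand was present in 16 of the 20 list members with a promoter (80%), against 24.6% of the promoters of 14723 measured genes. Some matches fall within CACGTG, the E-box of clock and Myc factors: outside it, 15 of the 20 members and 17% of all promoters held ACGTG. Among genes called at 24 h, 32.8% of those higher and 25.8% of those lower held it. The search was chosen after the changes were seen, and a match is a description of letters, not of binding.

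The 3 genes with printed windows are a carbonic anhydrase, an oxygen sensor and a glucose transporter. Car9 read 6.22, 6.14 and 6.13 in 24 h cells and 4.85, 5.08 and 4.93 in untreated cells (1.21 ± 0.12, adjusted p 3.18e-08). Egln1, a prolyl hydroxylase that marks HIF for destruction, read 10.28, 10.19 and 10.12 in 24 h cells and 9.57, 9.7 and 9.69 in untreated cells (0.54 ± 0.074, adjusted p 4.65e-06). Slc2a1, the basal glucose transporter, read 11.4, 11.32 and 11.26 in 24 h cells and 10.79, 10.91 and 10.85 in untreated cells (0.47 ± 0.068, adjusted p 1.02e-05). In all 3 genes the 24 h arrays stood above the untreated arrays without overlap.

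Other members with the largest rises were Ankrd37 (1.10 ± 0.16), the vasodilator peptide Adm (1.09 ± 0.17), Ndrg1 (0.87 ± 0.14) and the mitochondrial protein Higd1a (0.85 ± 0.11). Vegfa, the endothelial growth factor, read 10.83, 10.86 and 10.7 in 24 h cells and 10.56, 10.36 and 10.43 in untreated cells (0.35 ± 0.073, adjusted p 0.000807). Pdk1 (0.20, adjusted p 0.109) and Stc2 (-0.087, adjusted p 0.576) were the members not called.

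Insulin signalling genes rose in 9 of 25 measured members and fell in 8, with a median of 0.098, and without 24 h replicate 1 the number that fell was 5. The kinase Pdpk1 rose by 0.50 ± 0.083 and Pik3cb, a catalytic subunit of phosphoinositide kinase, by 0.52 ± 0.084, while the regulatory subunit Pik3r1 fell by 0.51 ± 0.076. The receptor substrate Irs1 fell by 0.32 ± 0.074 (adjusted p 0.00207). Slc2a4, the insulin-dependent glucose transporter, differed by 0.13 (adjusted p 0.192). Tbc1d4, the Akt substrate that holds that transporter inside the cell, rose by 0.45 ± 0.084, and the growth factor Igf1 fell by 0.55 ± 0.074.

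Adipokines and their receptors rose in 6 of 20 measured members and fell in 3, with a median of 0.041. Nrg4, a secreted factor of brown fat, read 6.76, 6.81 and 6.55 in 24 h cells and 5.83, 5.64 and 5.83 in untreated cells (0.94 ± 0.095, adjusted p 5.3e-08). Leptin fell as given above. The adiponectin receptor gene Adipor2 rose by 0.24 ± 0.053, and Adipor1 differed by -0.13 (adjusted p 0.112). With array weights 5 members fell.

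The receptor that binds the drug fell slightly. Pparg read 11.25, 11.27 and 11.22 in 24 h cells and 11.49, 11.52 and 11.51 in untreated cells (-0.25 ± 0.049, adjusted p 0.000379), without overlap. Its partner Rxra fell by 0.39 ± 0.077 and another partner, Rxrg, rose by 0.50 ± 0.11, while the related receptor Ppara rose by 0.66 ± 0.16 (adjusted p 0.00271). Tle3, a cofactor of PPARγ in fat cells, rose by 0.52 ± 0.059, and Klf15 fell by 0.40 ± 0.07.

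Over the whole list of 23 adipocyte transcription factors 7 rose and 3 fell, where 10.1% of all genes rose and 10.5% fell. The number that rose was 4 without untreated replicate 2, without untreated replicate 3 and with the 30 min arrays as baseline, and 5 fell against a baseline that held the 30 min arrays. The median was -0.058 as deposited and 0.021 after centring, so it has no settled sign. Of 17 nuclear receptor coregulators 4 rose and 3 fell, against the same shares of all genes. Besides the Ppargc1 genes, Ncoa7 rose by 0.31 ± 0.073, Cited2 fell by 0.61 ± 0.093 and the Mediator subunit Med14 fell by 0.37 ± 0.084, while Ncoa1, Ncoa2 and Ncoa3 were not called (adjusted p 0.879, 0.127 and 0.769).

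Breakdown of branched-chain amino acids gave 6 higher and 3 lower genes of 23, with a median of -0.014 as deposited and 0.065 after centring. Over all genes 10.1% rose and 10.5% fell. Bckdhb, a subunit of the branched-chain dehydrogenase, rose by 0.43 ± 0.07 (adjusted p 4.86e-05), as did Ppm1k, the phosphatase that activates it, by 0.47 ± 0.1 (adjusted p 0.00149). Ivd, the next enzyme for leucine, fell by 0.42 ± 0.06 (adjusted p 8.6e-06). The higher count was 3 without 24 h replicate 1. The lower count was 1 after centring and without 24 h replicate 3, untreated replicate 1 or untreated replicate 3, and 6 under quantile normalization and with untreated and 30 min arrays as 1 baseline.

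Acute-phase and complement genes had calls in 1 direction as deposited. Of 24 measured members 11 fell and 0 rose, with a median of -0.17, and 9 fell and 1 rose after centring. Haptoglobin, Hp, which binds free haemoglobin, read 8.62, 8.27 and 8.42 in 24 h cells and 10.44, 10.49 and 10.44 in untreated cells (-2.01 ± 0.088, adjusted p 7.52e-14). Hemopexin, Hpx, which binds haem, read 6.05, 5.64 and 5.93 in 24 h cells and 6.9, 7.09 and 7.26 in untreated cells (-1.21 ± 0.12, adjusted p 6.16e-08). The orosomucoid genes Orm1 (-0.92 ± 0.12) and Orm3 (-1.39 ± 0.19) fell, with the reservation that the Orm genes are close copies whose probes may cross-read. Lipocalin, Lcn2, fell by 0.66 ± 0.15 and ceruloplasmin, Cp, fell by 0.67 ± 0.083. The serum amyloid genes Saa3 and Saa2 differed by -0.049 (adjusted p 0.81) and -0.045 (adjusted p 0.848).

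Chemokines, cytokines and adhesion molecules fell in 9 of 34 measured members and rose in 1. The median was -0.044 as deposited and 0.035 after centring, so it has no settled sign. Most members were not called, and the list averaged 4.14, 4.14 and 4.19 on the 24 h arrays and 4.46, 4.44 and 4.45 on the untreated arrays. Ccl2, which attracts monocytes, read 4.37, 4.36 and 4.64 in 24 h cells and 5.55, 5.46 and 5.66 in untreated cells (-1.10 ± 0.16, adjusted p 1.44e-05). The macrophage growth factor Csf1 fell by 1.00 ± 0.1, the adhesion molecule Vcam1 fell by 1.13 ± 0.1 and the membrane chemokine Cx3cl1 fell by 1.12 ± 0.15. Cxcl12 fell by 0.73 ± 0.083. Il6 (-0.16, adjusted p 0.272), Tnf (0.12, adjusted p 0.48) and Cxcl1 (-0.29, adjusted p 0.215) were not called, and Tnfaip3, an inhibitor of NF-kB signalling, rose by 0.57 ± 0.11. The higher count was 3 after centring and under quantile normalization, and 2 without 24 h replicate 2. Of the 11 macrophage markers 2 were called lower, as given above, and their part in these changes was not tested.

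Interferon response and antigen presentation genes fell in 13 of 29 measured members and rose in 2, with a median of -0.21. The immunoproteasome subunits moved together: Psmb10 fell by 0.69 ± 0.11, Psmb8 fell by 0.69 ± 0.12 and Psmb9 fell by 0.48 ± 0.083. The RNA sensor Ifih1 fell by 0.60 ± 0.11 (adjusted p 0.000294). Classical interferon targets such as Mx1 (-0.0041, adjusted p 0.983), Isg15 (-0.027, adjusted p 0.905) and Rsad2 (0.046, adjusted p 0.784) were not called. The higher count was 1 when probe sets of a gene were averaged and without untreated replicate 1, and 0 against the 30 min arrays.

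Collagen genes fell in 9 of 25 measured members and rose in 0, with a median of -0.16. The fibrillar collagens fell by small amounts: Col1a1 fell by 0.29 ± 0.062, Col1a2 fell by 0.33 ± 0.06 and Col3a1 fell by 0.43 ± 0.074. Col18a1, a basement membrane collagen, read 6.88, 6.76 and 7.0 in 24 h cells and 7.52, 7.7 and 7.65 in untreated cells (-0.74 ± 0.1, adjusted p 5.93e-06). The 3 measured chains of collagen VI were not called: Col6a1 differed by -0.033, Col6a2 by -0.062 and Col6a3 by -0.11 (adjusted p 0.8, 0.632 and 0.245).

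Enzymes that process collagen moved further than the collagens themselves in their median, -0.36, with 10 of 18 lower and 3 higher. Under quantile normalization, without 24 h replicate 1 and without untreated replicate 3, 1 member rose. Besides Pcolce2, the crosslinking oxidases Loxl1 (-0.70 ± 0.085) and Loxl4 (-0.55 ± 0.1) fell, the procollagen protease Bmp1 fell by 0.53 ± 0.064, and the prolyl hydroxylase P3h2 fell by 0.85 ± 0.11 (-0.49 with its probe sets averaged). P4ha2, a prolyl hydroxylase that hypoxia is known to raise, rose by 0.61 ± 0.1 (adjusted p 8.39e-05). The enzymes of collagen making therefore did not share a single direction.

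Matricellular proteins and proteoglycans fell in 17 of 34 measured members and rose in 4, with a median of -0.21. Lum, lumican, read 6.64, 6.71 and 6.84 in 24 h cells and 8.05, 7.82 and 7.76 in untreated cells (-1.14 ± 0.12, adjusted p 1.02e-07). Other small proteoglycans fell too, Ogn by 1.11 ± 0.22 and Dcn by 0.74 ± 0.1, while Prelp rose by 0.45 ± 0.1. Sparcl1 fell by 0.83 ± 0.056, versican, Vcan, fell by 0.96 ± 0.11, and fibronectin, Fn1, fell by 0.34 ± 0.078. Thbs1 fell by 0.55 ± 0.12 and its relative Thbs2 rose by 0.41 ± 0.074, with differences of -0.83 and 0.25 against the 30 min arrays.

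Matrix proteases and their inhibitors fell in 11 of 21 measured members and rose in 2, with a median of -0.22, and the lower count was 7 after centring. Adamts5, an aggrecanase, read 7.42, 7.36 and 7.33 in 24 h cells and 8.7, 8.62 and 8.58 in untreated cells (-1.26 ± 0.093, adjusted p 3.19e-10). Adamts1 fell by 1.08 ± 0.11, the membrane collagenase Mmp14 fell by 0.71 ± 0.06, and the inhibitors Timp1 (-0.59 ± 0.12) and Timp2 (-0.77 ± 0.088) fell, with -0.94 for Timp1 against the 30 min arrays. Adam12 and Mmp11 rose by 0.78 ± 0.12 and 0.64 ± 0.088. Proteases and the inhibitors that restrain them were thus both among the genes that fell. The falls of the collagen, matricellular and protease lists ran beside that of the preadipocyte and fibroblast markers given above, whose part in them was not tested.

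Actin and contractile genes had the lowest net share of the 39 lists: of 24 measured members 15 fell and 0 rose, with a median of -0.29, and 13 fell and 2 rose after centring. Flna, filamin, which crosslinks actin, read 8.01, 7.94 and 8.05 in 24 h cells and 9.26, 9.43 and 9.4 in untreated cells (-1.36 ± 0.085, adjusted p 2.12e-11). Myl9, a myosin light chain, read 3.99, 4.3 and 4.73 in 24 h cells and 6.11, 6.28 and 5.99 in untreated cells (-1.79 ± 0.19, adjusted p 7.97e-08). Calponin Cnn2 fell by 1.09 ± 0.12, caldesmon Cald1 fell by 0.71 ± 0.074, Tagln fell by 1.04 ± 0.14 and Actg2, whose sequence is close to that of Acta2, fell by 1.02 ± 0.14.

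The change did not extend to every contractile gene. Cnn1, the calponin of smooth muscle, differed by 0.18 (adjusted p 0.277), Myh10 by 0.18 (adjusted p 0.0627) and Tpm2 by 0.048 (adjusted p 0.707). Srf, the transcription factor that drives many genes of the list, fell by 0.37 ± 0.091 (adjusted p 0.00395). The fall of this list ran beside that of the preadipocyte markers given above, and the part of that cell type in it was not tested.

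**Figure D4:**
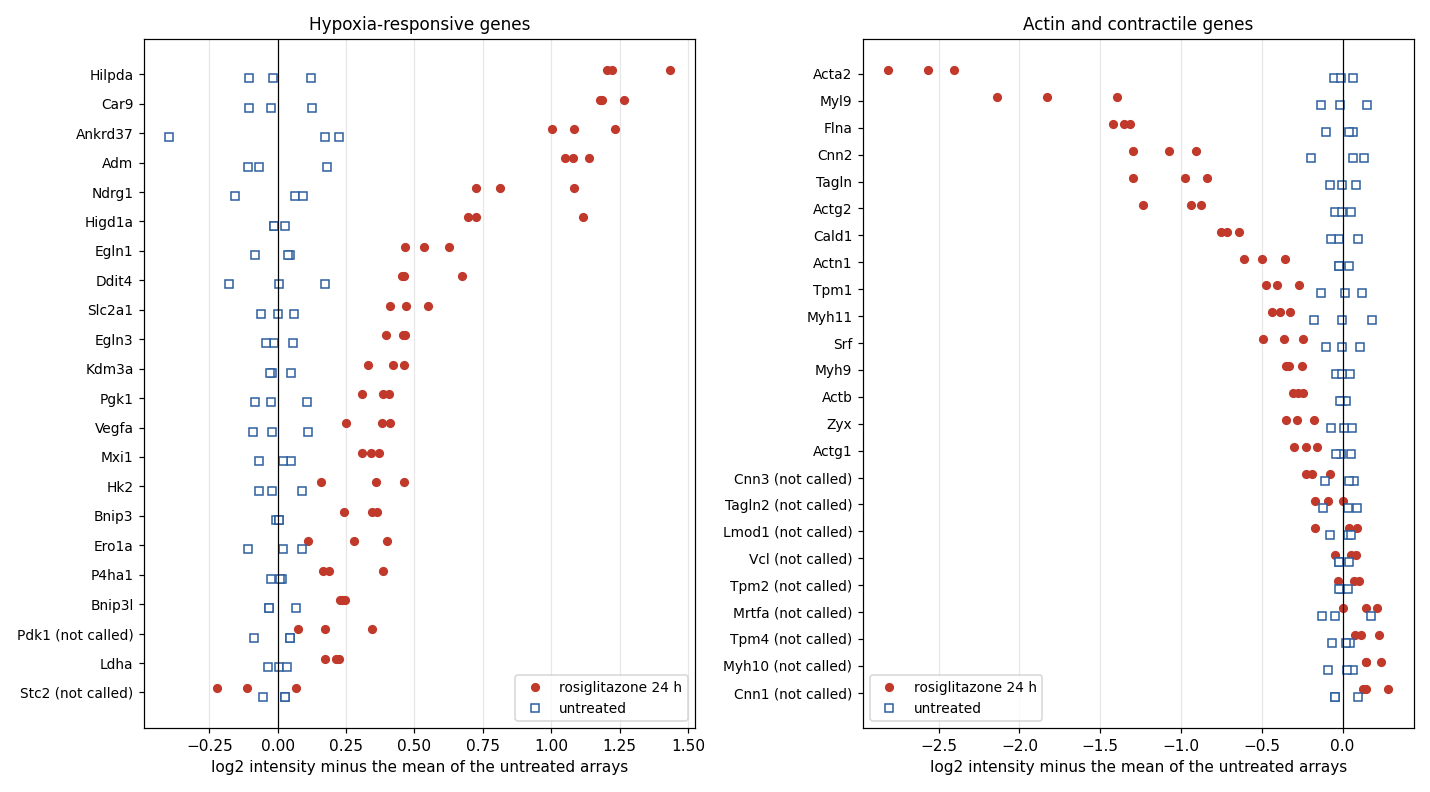
Log2 intensity on each array minus the mean of the untreated arrays (horizontal axis) for the 22 hypoxia-responsive genes and the 24 actin and contractile genes, with filled red circles for the 24 h arrays and open blue squares for the untreated arrays, and uncalled genes marked. Of the hypoxia genes 20 rose and of the contractile genes 15 fell, from -2.59 for Acta2.

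YAP and TEAD targets, which report on cell tension and spreading, fell in 6 of 16 measured members and rose in 2, with a median of -0.15. Besides Ccn1, the receptor kinase Axl read 7.42, 7.21 and 7.39 in 24 h cells and 7.99, 8.27 and 8.17 in untreated cells (-0.80 ± 0.083, adjusted p 7.79e-08). Arhgef17 fell by 0.95 ± 0.12 and F3, tissue factor, fell by 0.56 ± 0.061. Ccn2 (-0.18, adjusted p 0.219) and Ankrd1 (-0.016, adjusted p 0.928), other genes known as YAP targets, were not called, and the factor Tead1 rose by 0.58 ± 0.068. Only 1 rose without 24 h replicate 2 and against either baseline that held the 30 min arrays.

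Immediate early genes fell in 15 of 32 measured members and rose in 4, with a median of -0.26, and the lower count was 9 without untreated replicate 3. Egr1 read 5.84, 5.78 and 6.02 in 24 h cells and 6.93, 7.74 and 8.0 in untreated cells (-1.67 ± 0.3, adjusted p 0.000188), and the untreated arrays spread more widely than the 24 h arrays. Errfi1, an inhibitor of the EGF receptor, fell by 1.34 ± 0.095, and Dusp6, a phosphatase of ERK, fell by 1.33 ± 0.17. Klf6 fell by 0.71 ± 0.11 and Myc fell by 0.47 ± 0.11. The rises included Ier3 (1.14 ± 0.16) and the AP-1 genes Fosl2 (0.69 ± 0.12) and Jun (0.32 ± 0.073), while Fos differed by 0.00093 (adjusted p 0.999).

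Genes of Wnt and TGF-beta signalling fell in 10 of 38 measured members and rose in 1, with a median of -0.14. Sfrp2, a secreted Wnt antagonist, read 6.09, 6.04 and 6.15 in 24 h cells and 7.81, 8.0 and 7.62 in untreated cells (-1.71 ± 0.14, adjusted p 1.25e-09). Of the 4 measured Id genes, targets of BMP signals, Id2 (-1.72 ± 0.27), Id1 (-0.89 ± 0.076) and Id3 (-0.62 ± 0.12) fell, and Id4 differed by -0.32 (adjusted p 0.0733). Against the 30 min arrays Id3 differed by -1.47, and by -1.04 with untreated and 30 min arrays as 1 baseline. The Wnt receptors Fzd1 (-0.49 ± 0.072) and Fzd4 (-0.55 ± 0.072) fell. None of 6 measured Wnt ligands was called: among them Wnt5a differed by 0.20 (adjusted p 0.157), Wnt10b by 0.078 (adjusted p 0.695) and Wnt6 by -0.026 (adjusted p 0.933). After centring 2 members rose, and without 24 h replicate 2 none did.

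Antioxidant genes rose in 6 of 28 measured members and fell in 4, with a median of 0.0003, where 10.1% of all genes rose and 10.5% fell. Haem oxygenase, Hmox1, read 11.07, 11.04 and 11.09 in 24 h cells and 10.14, 10.39 and 10.32 in untreated cells (0.78 ± 0.088, adjusted p 2.62e-07). The quinone reductase Nqo1, which like Hmox1 is a known target of NRF2, read 5.81, 5.6 and 6.02 in 24 h cells and 7.35, 7.24 and 7.38 in untreated cells (-1.52 ± 0.11, adjusted p 3.19e-10). These NRF2 targets therefore moved in opposite directions. Gstm1 (-0.60 ± 0.096) and Gstm2 (-0.54 ± 0.079) fell, with the reservation that the Gstm genes are close copies, and Gclc and Gclm were not called (adjusted p 0.154 and 0.0914).

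Lysosomal genes fell in 8 of 26 measured members and rose in 2, with a median of -0.085, and the lower count was 5 after centring. The acid lipase Lipa, which digests lipid in lysosomes, read 10.76, 10.79 and 10.67 in 24 h cells and 9.86, 9.69 and 9.79 in untreated cells (0.96 ± 0.081, adjusted p 2.49e-09). Npc1, which exports the cholesterol so released, rose by 0.36 ± 0.083, and its partner Npc2 fell by 0.37 ± 0.061. The hexosaminidase Hexa fell by 0.58 ± 0.079 and the cathepsins Ctsk (-0.73 ± 0.12) and Ctsl (-0.37 ± 0.051) fell.

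Stress and glucocorticoid genes had calls in both directions, where 10.1% of all genes rose and 10.5% fell. In the unfolded protein and amino acid stress list 7 of 23 rose and 5 fell, and Dnajb9, a chaperone of the endoplasmic reticulum, rose by 0.54 ± 0.074, while the master chaperone Hspa5 differed by 0.029 (adjusted p 0.824). The higher count of that list was 4 without 24 h replicate 1, and the lower count was 3 after centring and without untreated replicate 2, and 8 with array weights. Of 17 glucocorticoid-responsive genes 3 rose and 5 fell, and 1 rose without 24 h replicate 1 or untreated replicate 2. Fkbp5, a sensitive target of the glucocorticoid receptor, fell by 0.66 ± 0.094, and Tsc22d3, another such target, differed by -0.10 (adjusted p 0.492).

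Carbonic anhydrases and aquaporins rose in 4 of 17 measured members and fell in 4. The secreted anhydrase Car6 read 6.54, 6.35 and 6.19 in 24 h cells and 4.93, 5.02 and 5.26 in untreated cells (1.29 ± 0.2, adjusted p 2.27e-05), beside the rise of Car9 given above. Car3, an abundant anhydrase of fat and muscle, fell by 0.76 ± 0.1 (adjusted p 3.01e-06). Among the water channels Aqp7 rose, and Aqp1 (-0.73 ± 0.12) and Aqp5 (-0.89 ± 0.12) fell.

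The day point was then set against the harvests before and after it, which ask how far the response was still moving. Between 24 h and 12 h of drug 550 genes differed (2.93% of those tested), 238 higher (1.27%) and 312 lower (1.66%) at 24 h. This count varied when 1 array was left out: it was 306, 243 and 379 without 24 h replicate 1, 2 and 3. Without 12 h replicate 1, 2 and 3 it was 457, 184 and 566. A fit with fewer arrays also has less power, so a lower count does not by itself mark an array as decisive. Between 24 h and 36 h 29 genes differed (0.154%), 19 higher (0.101%) and 10 lower (0.0532%) at 24 h, and 2003 genes (10.7%) had an unadjusted p below 0.05. The count was 6 without 24 h replicate 1, 17 without 24 h replicate 2, 10 without 24 h replicate 3, 11 without 36 h replicate 1, 0 in a fit of the 6 arrays alone and 1365 with array weights, which gave 36 h replicate 3 a weight of 3.88 and the other 36 h arrays 0.335 and 0.47.

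Among the largest rises between 12 h and 24 h were the anhydrases Car6 and Car9, from a list in which 2 members were higher and 3 lower. The lower calls were lost in 7 of 14 alternatives for Car3 and 8 for Car13, each without any single 24 h array or without 12 h replicate 1 or 2 among them, and for Aqp1 without 24 h replicate 1 (-0.44, adjusted p 0.0717). Car6 was higher at 24 h than at 12 h by 1.19 ± 0.2 (adjusted p 0.000973) and Car9 by 0.98 ± 0.12 (adjusted p 3.33e-05). Cidea read 6.06, 6.35 and 6.22 at 24 h and 4.8, 5.2 and 5.32 at 12 h (1.10 ± 0.12, adjusted p 1.45e-05), and Ndrg1 differed by 0.86 ± 0.14 (adjusted p 0.000666). In the hypoxia list 5 of 22 members were higher at 24 h than at 12 h and 0 lower, with a median of 0.21, against -0.0029 over all genes. Among the genes that fell further were Ccl6 (-1.31 ± 0.24, adjusted p 0.0023), Orm2 (-1.22 ± 0.17, adjusted p 0.000193), Acta2 (-1.06 ± 0.12, adjusted p 1.78e-05) and Hp (-1.05 ± 0.088, adjusted p 1.73e-07). Flna was lower by 0.65 (adjusted p at most 0.0038 in every alternative other than the 1.5-fold minimum).

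Cell cycle genes, of which 14 of 30 fell and 1 rose against untreated, also separated the neighbouring times. The lower count against untreated was 8 after centring, 7 without 24 h replicate 2, and 9 without untreated replicate 1 or untreated replicate 2, and the member that rose was lost without 24 h replicate 1 or 3 and without untreated replicate 2 or 3. Ccnd1, the G1 cyclin, read 7.01, 7.03 and 7.17 in 24 h cells and 8.11, 8.25 and 8.3 in untreated cells (-1.15 ± 0.1, adjusted p 4.58e-09). Pcna, the clamp of DNA replication, fell by 0.41 ± 0.078 against untreated. Mcm5, a subunit of the replication helicase, read 5.39, 5.29 and 5.56 at 24 h, against 6.44, 6.5 and 6.08 at 12 h (-0.92 ± 0.11, adjusted p 1.81e-05), and differed from untreated cells by -0.57 ± 0.11 and from the 30 min arrays by -0.94. Of the 30 genes 5 were lower at 24 h than at 12 h and 0 higher.

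Of the 30 cell cycle genes 8 were higher at 24 h than at 36 h and 0 lower. The cyclin Ccna2 read 6.78, 6.53 and 6.45 at 24 h and 5.57, 5.16 and 5.8 at 36 h (1.08 ± 0.12, adjusted p 7.5e-05), and was lower than in untreated cells by 0.45 ± 0.12 (adjusted p 0.00791). Bub1, a spindle checkpoint kinase, read 5.15, 4.73 and 4.63 at 24 h and 3.53, 3.63 and 4.11 at 36 h (1.08 ± 0.14, adjusted p 0.000628), and Mki67, the proliferation marker, read 5.45, 5.36 and 5.23 at 24 h and 4.1, 4.48 and 4.55 at 36 h (0.97 ± 0.14, adjusted p 0.0015). These 3 calls were lost in the fit of the 6 arrays alone (adjusted p 0.304, 0.311 and 0.167). The call of Ccnb2 (0.78 ± 0.13, adjusted p 0.00592) was also lost without 24 h replicate 1 (0.70, adjusted p 0.0638), and Kif11 (0.78 ± 0.11) was 0.50 (adjusted p 0.107) when its probe sets were averaged.

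The element known to hold mitotic genes off outside division, the cell cycle homology region, has the letters TTTGAA, and the windows below show it in capitals, as TTCAAA where it lies on the other strand, in 4 of the genes that differed between 24 h and 36 h.
Mki67, chr7:135716463-135716522, minus strand: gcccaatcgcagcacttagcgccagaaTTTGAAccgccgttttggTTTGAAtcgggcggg
Ccnb2, chr9:70421689-70421748, minus strand: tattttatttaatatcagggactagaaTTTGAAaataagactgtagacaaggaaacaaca
Kif11, chr19:37376322-37376381, plus strand: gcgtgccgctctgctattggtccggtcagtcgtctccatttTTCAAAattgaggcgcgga
Top2a, chr11:99024336-99024395, minus strand: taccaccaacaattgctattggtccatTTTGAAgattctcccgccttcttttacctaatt
The match lay 110 bases before the start in Mki67 (the first of the 2 shown), 161 in Ccnb2, 13 in Kif11 and 173 in Top2a. TTTGAA on either strand was present in 10 of the 24 cell cycle genes with a promoter, against 17.3% of all 14723 promoters, 14.1% of those of genes called higher at 24 h and 14.4% of those called lower. Within the list, 4 of 11 called and 6 of 13 uncalled genes held it. The genes and the search were chosen after the changes were seen, and a match is a description of letters, not of binding. The direct repeat that PPARγ and RXR bind was sought in the same promoters and on both strands as AGGNCA, any base and AGGNCA again, and was present in 60 of 14723 (0.408%), in 0.32% of those called higher, in 0.509% of those called lower and in 0 of the 23 lipid uptake and storage genes with a promoter, in a window that leaves out more distant elements.

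Top2a, the topoisomerase of dividing cells, read 5.5, 5.2 and 5.43 at 24 h and 4.47, 4.43 and 5.03 at 36 h (0.73 ± 0.13, adjusted p 0.0158). That call was lost in the fit of 6 arrays (adjusted p 0.479), with its probe sets averaged (0.29, adjusted p 0.216), and without 24 h replicate 1 (0.67, adjusted p 0.128), 24 h replicate 3 (0.71, adjusted p 0.103), 36 h replicate 1 (0.65, adjusted p 0.122) or 36 h replicate 2 (0.63, adjusted p 0.0633). Across the course Ccna2 averaged 7.04 in untreated cells and 6.95 at 12 h, then 6.59 at 24 h, 5.51 at 36 h and finally 5.03 at 48 h. The day point thus lay between the levels before and after it.

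Of the 20 thermogenic genes 3 (Cidea, Cox7a1 and Cox8b) were lower at 24 h than at 36 h and 0 higher, with a median of -0.048. Cidea averaged 5.07 in untreated cells and 5.11 at 12 h, then 6.21 at 24 h, 7.0 at 36 h and finally 7.56 at 48 h. At 24 h it was below its 36 h level by 0.79 ± 0.12 (adjusted p 0.00483), a call lost without 24 h replicate 1 (adjusted p 0.0584) and in the fit of 6 arrays (adjusted p 0.167). Cox7a1 differed from 36 h by -0.46 ± 0.089 (adjusted p 0.0238), a call lost in 7 of 14 alternatives, among them those without 24 h replicate 1 (-0.44, adjusted p 0.141), 24 h replicate 2 (-0.47, adjusted p 0.0883), 24 h replicate 3 (-0.48, adjusted p 0.0867), 36 h replicate 1 (-0.40, adjusted p 0.152) and 36 h replicate 3 (-0.47, adjusted p 0.0661). The call of Cox8b (-0.42 ± 0.081, adjusted p 0.0253) was lost in 8 of 14 alternatives, among them those without any single 24 h array and without 36 h replicate 1 or 3. Ucp1 stayed between means of 2.7 and 2.88 at all 9 times.

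Clock genes, whose products form a daily feedback loop, gave 3 higher and 6 lower members of 19 against untreated, and 4 higher and 1 lower against 12 h. The higher count against untreated was 5 after centring and with array weights and 1 without 24 h replicate 1, 24 h replicate 2 or untreated replicate 1, and the lower count was 2 without 24 h replicate 1. Npas2, which pairs with Arntl to drive the loop, read 6.72, 6.64 and 6.58 in 24 h cells and 7.17, 7.33 and 7.42 in untreated cells (-0.66 ± 0.11, adjusted p 5.09e-05), and was lower at 24 h than at 12 h by 0.77. Per2, a repressor of the loop, was higher at 24 h than at 12 h by 0.63, with means of 6.0 at 12 h and 6.63 at 24 h, then 6.15 at 36 h and finally 6.57 at 48 h. Npas2 had means of 7.41 at 12 h and 6.65 at 24 h, then 7.12 at 36 h and finally 6.39 at 48 h. The difference of Npas2 between 24 h and 36 h was not called (-0.48, adjusted p 0.0946), and 36 h was not tested against 48 h. Against 36 h, 2 clock genes were higher at 24 h and 0 lower, where 0.101% of all genes were higher. Per3 was among them (0.52 ± 0.1, adjusted p 0.0252). Of 23 named genes called against 36 h, 0 kept the call in every alternative but the 1.5-fold minimum.

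**Figure D5:**
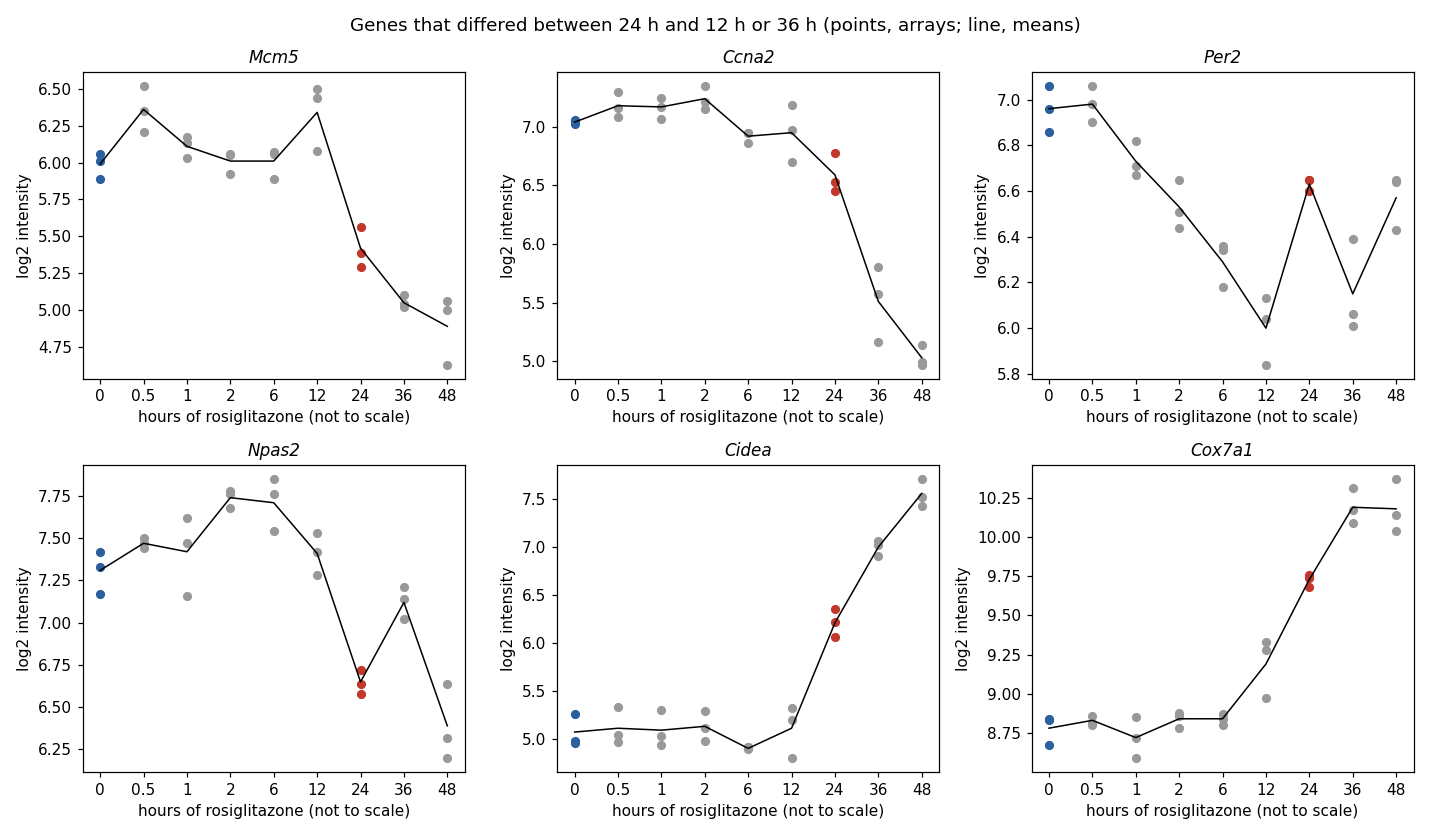
Log2 intensity of Mcm5, Ccna2, Per2, Npas2, Cidea and Cox7a1 (vertical axes) at the 9 times of the course (horizontal axis, not to scale), with a point per array, red for 24 h, blue for untreated and grey for the other times, and a line through the group means. Ccna2 averaged 6.59 at 24 h, 5.51 at 36 h and 5.03 at 48 h, while Cidea averaged 6.21, 7.0 and 7.56 at the same times.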

How the data were processed

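Each of 27 RNA samples was hybridised to 1 Affymetrix Mouse Gene 1.1 ST array. The authors deposited normalized log2 intensities per probe set, and the submitters' processing notes name Partek and RMA without versions. The genome build of the array annotation is not given in the sources used here. Of 28815 probe sets, 21153 had 1 gene symbol, 1867 several and 5795 none, and 21123 were matched by Entrez identifier. The probe set with the highest mean was kept for each gene, leaving 18781 genes.

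All 27 arrays entered 1 model of 9 group means in limma 3.58.1 (R 4.3.3; lmFit and eBayes, two-sided), with Benjamini-Hochberg adjustment over all genes per contrast. The steps were tested on simulated data. Tables and figures used Python 3.11.15, pandas 2.3.3, numpy 2.4.6 and matplotlib 3.10.9.

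Genes were named if they were among the 25 highest or 25 lowest called changes with groups that did not overlap, among the 10 highest or 10 lowest by the same rule against 12 h or 36 h, or on any of 44 gene lists, of whose 1052 entries 86 were not measured. The members and lists were chosen with earlier results of these data known. For each comparison 15 alternatives were planned, and 2 more, with the 30 min arrays as baseline or merged with the untreated arrays, were added for 24 h against untreated after the data were seen. Promoter sequences came from RefSeq on GRCm38.p6 and were used for 14723 genes.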

Additional observations from a re-analysis of the deposited data

How the results depend on the processing

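The comparison of 24 h with untreated gave 3879 calls as deposited, 2970 to 3647 when 1 array was left out, 3450 with the replicate number as a block and 147 with a minimum change of 1.5-fold, a stricter test by construction. Whether the replicate numbers pair the samples is not known. Deviations of same-numbered 24 h and untreated arrays from their group means correlated at -0.0124, -0.206 and -0.132. Those of differently numbered arrays correlated at -0.108 to 0.243. Deviations from a mean of 3 arrays depend on each other, so these values cannot settle the pairing. Against 12 h, 550 calls became 350 with the replicate block, 188 in a fit of the 6 arrays alone, 849 among genes above the median mean, 0 with the 1.5-fold minimum and 184 to 566 when 1 array was left out. Against 36 h, 29 calls became 14 with the replicate block, 0 in a fit of the 6 arrays alone, 1365 with array weights, 0 with the 1.5-fold minimum and 6 to 32 when 1 array was left out. At an unadjusted p below 0.05, the limma fit of the 6 arrays gave 1361 genes against 36 h, and the 1.5-fold minimum gave 16 genes against 12 h and 4 against 36 h. With the 30 min arrays as baseline, Amotl2, called higher against untreated (0.24), was called lower at -0.21 (adjusted p 0.0253). Btg2, Fos and Fzd5, not called against untreated (0.16, 0.00093 and 0.06), were called lower at -0.29 (adjusted p 0.00361), -0.63 (adjusted p 0.0214) and -0.52 (adjusted p 3.24e-05). The cause of these differences was not tested. Of named genes called against 12 h, 41 of 91 kept the call in every alternative but the 1.5-fold minimum, and of those against 36 h, 0 of 23. Several probe sets were available for 88 named genes, and in 0 of them did probe sets have calls in opposite directions. Low signal limits what can be said of Ucp1 and several other thermogenic genes, and of the macrophage and muscle markers.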

Other observations

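Genes that are often used as constant references were not all constant. Of 14 measured, 1 rose and 4 fell at 24 h against untreated, where 10.1% of all genes rose and 10.5% fell. Hprt, of purine salvage, read 9.04, 9.06 and 8.93 in 24 h cells and 8.3, 8.32 and 8.39 in untreated cells (0.68 ± 0.077, adjusted p 3.27e-07). Gusb, a lysosomal glucuronidase, read 6.46, 6.32 and 6.46 in 24 h cells and 7.29, 7.51 and 7.48 in untreated cells (-1.01 ± 0.087, adjusted p 3.42e-09). The groups did not overlap in either gene, and they moved in opposite directions. Actb, cytoskeletal actin, fell by 0.28 ± 0.05 (adjusted p 0.000154) and Polr2a, a subunit of RNA polymerase, by 0.27 ± 0.058 (adjusted p 0.00115). Ppia (-0.14, adjusted p 0.163), Tbp (0.17, adjusted p 0.0945) and Gapdh (0.049, adjusted p 0.567) were not called. The count of references that rose was 3 after centring each array on its median and 2 without untreated replicate 1.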
